A study of Mus musculus with 84 samples.

Results

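The results below concern 9 genes for surface and secreted proteins that mark resting microglia, the resident macrophages of the brain: Tmem119, Siglech, Cx3cr1, Fcrls, Gpr34, Olfml3, Sparc, Slc2a5 and Selplg. They were taken by symbol from the 49671 gene identifiers of each count file and all 9 were found and passed the filter on low counts in every fit. The study sequenced bulk RNA of sorted microglia from mice at days 1, 7, 14, 30 and 60 after severe traumatic brain injury, and asked how the cells change when peripheral monocytes are depleted. Its 84 libraries fall into 4 treatments: no injury, injury only, injury with vehicle (PBS) liposomes, and injury with liposomes that carry clodronate, a compound that kills phagocytes which take the liposomes up. Uninjured controls appear as sham in the sample titles and as naive in the library names, so whether they had surgery is unknown. The sources used here do not give strain, sex, age, liposome dose or sorting gates. Each group of 1 treatment and day held 3 to 5 libraries, except at day 1, where the liposome groups held libraries of 2 years, an earlier one shared with the other groups of that day and a later one (2 and 2 libraries for vehicle, 3 and 3 for clodronate). Nothing in the labels ties each library to its own mouse, and a p-value here reflects the spread between libraries, which may be technical.

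Resting microglia read their surroundings through receptors that their branches carry, among them receptors for neuronal chemokine and lysolipids. Together with several secreted proteins, these receptors form a gene programme that depends on signals of the brain tissue, transforming growth factor beta above all, and that microglia lower when they are activated or lose contact with that tissue. Some of the 9 genes, such as Tmem119, are used to tell microglia from other macrophages, while others are not limited to microglia. Gpr34 is a G protein-coupled receptor for lysophosphatidylserine, and Cx3cr1 is the receptor of the neuronal chemokine fractalkine. Siglech encodes a receptor of the Siglec lectin family, found on mouse microglia and plasmacytoid dendritic cells. Fcrls is a mouse Fc receptor-like scavenger receptor, and Tmem119 is a transmembrane protein used as a microglial marker. Slc2a5 encodes the fructose transporter GLUT5. Selplg encodes PSGL-1, the leukocyte ligand of P-selectin. Sparc is a secreted collagen-binding matricellular protein that endothelial cells also make, and Olfml3 is a secreted olfactomedin-like glycoprotein.

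In the annotation of mouse build GRCm38, the 9 protein-coding genes lie on 7 chromosomes. Tmem119 (ENSMUSG00000054675, chromosome 5, 113793729 to 113800516) and Selplg (ENSMUSG00000048163, chromosome 5, 113818536 to 113832644) are direct neighbours on the minus strand, 18020 bp apart. Fcrls (ENSMUSG00000015852, 87250758 to 87263738) and Olfml3 (ENSMUSG00000027848, 103722222 to 103738001) are both on chromosome 3, minus strand. Siglech (ENSMUSG00000051504) spans 55768178 to 55778925 on chromosome 7, Slc2a5 (ENSMUSG00000028976) 150119283 to 150144169 on chromosome 4, and Sparc (ENSMUSG00000018593) 55394500 to 55423183 on chromosome 11. Gpr34 (ENSMUSG00000040229, chromosome X, 13632089 to 13640858) lies within Cask on the opposite strand. The annotated span of Cx3cr1 (ENSMUSG00000052336, chromosome 9, 119901616 to 120069879) overlaps several other genes, among them Wdr48 and Csrnp1. No source used here says whether reads were counted by strand, so reads of Gpr34 and Cx3cr1 may be shared with these overlapping genes.

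RefSeq promoter windows of GRCm38.p6, which run from 250 bases before to 50 after the transcription start, were available for 6 of the 9 genes, and 3 of them are shown because they hold a letter match to a motif of a microglial factor family. The letters GGAAGT, a core bound by ETS factors such as PU.1, and TGCTGAC, a core bound by MAF factors, were searched on both strands; neither pattern overlaps the other. In each window below, read 5′ to 3′ on the strand of the gene, capitals mark the match, which lies on the opposite strand and so appears as its reverse complement. The windows are chr7:55767934-55768233 on the plus strand for Siglech, chr3:87263475-87263774 on the minus strand for Fcrls and chr11:55420031-55420330 on the minus strand for Sparc.
Siglech: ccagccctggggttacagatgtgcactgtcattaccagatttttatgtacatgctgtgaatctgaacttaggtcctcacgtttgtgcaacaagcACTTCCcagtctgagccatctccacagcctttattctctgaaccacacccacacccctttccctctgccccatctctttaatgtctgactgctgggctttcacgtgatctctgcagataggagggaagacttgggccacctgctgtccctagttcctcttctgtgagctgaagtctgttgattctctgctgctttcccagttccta
Fcrls: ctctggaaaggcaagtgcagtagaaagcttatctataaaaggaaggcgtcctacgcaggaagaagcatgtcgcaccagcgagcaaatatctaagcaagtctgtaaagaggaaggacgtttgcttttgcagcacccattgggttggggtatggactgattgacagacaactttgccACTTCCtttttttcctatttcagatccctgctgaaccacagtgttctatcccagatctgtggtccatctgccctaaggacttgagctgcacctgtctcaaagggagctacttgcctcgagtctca
Sparc: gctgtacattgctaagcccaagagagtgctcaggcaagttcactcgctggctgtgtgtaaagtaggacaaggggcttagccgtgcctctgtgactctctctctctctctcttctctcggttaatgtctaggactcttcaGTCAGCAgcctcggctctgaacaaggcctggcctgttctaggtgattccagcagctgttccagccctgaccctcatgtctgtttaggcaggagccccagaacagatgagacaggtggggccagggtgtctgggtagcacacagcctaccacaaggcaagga
The ETS core begins 156 bases before the start in Siglech and 75 before it in Fcrls, and the MAF core 111 before it in Sparc. GGAAGT occurred in 2 of the 6 windows and in 23.8% of all 32851 windows, and TGCTGAC in 1 of 6 and in 4.67%. A match is a description of letters and not a binding site. The windows of Olfml3, Slc2a5 and Cx3cr1 held neither pattern.

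Total gene counts ran from 1109856 to 18654785 per library, and a level in CPM is a count scaled to a common library total after TMM normalisation. The sorted cells carried the markers of their label: 6 microglial genes, among them P2ry12 and Csf1r, summed to 32296 to 34730 CPM in uninjured libraries of day 1, where 10 monocyte genes summed to 12.5 to 16.1 CPM and 10 neutrophil genes to 0.320 to 1.01 CPM. Several libraries stood apart. Vehicle library 4 of day 7 held 1134078 counts, with 22.4% of its reads in no annotated feature. Uninjured library 3 of day 14 summed to 4207 CPM over the microglial genes, against 26629 to 27942 CPM in the other 2, and held 5578 CPM of monocyte and 9695 CPM of neutrophil genes. The day 14 libraries labelled clodronate 1 and vehicle 1 each lay nearer the median of the other liposome group, for 9 and 8 of the 9 genes and also for P2ry12, the purinergic receptor of resting microglia, which stood at 4234 CPM in the former and 1033 CPM in the latter, while the other 4 clodronate libraries held 906 to 1123 CPM and the other 4 vehicle libraries 2648 to 3419 CPM. The comparisons of day 14, the differences between days and the summaries over group means are given with and without those of the 3 day 14 libraries that enter them.

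Per kilobase of merged exons, Tmem119 was the most abundant of the 9 in uninjured microglia of day 1, at 2404 ± 272 CPM per kb (SD, n = 5). Fcrls, Sparc and Selplg followed at 1436 ± 109, 1433 ± 172 and 1431 ± 194 CPM per kb, and their ranges overlapped. Cx3cr1 at 899 ± 167 and Gpr34 at 758 ± 121 CPM per kb also overlapped. Siglech stood at 497 ± 33.1, Olfml3 at 357 ± 43.7 and Slc2a5 at 292 ± 28.3 CPM per kb, and the ranges of the last pair overlapped.

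At day 1 after injury every one of the 9 genes was lower, and the depth of the loss differed between genes. Compared with uninjured libraries of the same day, 9 of 9 fell, while 15.3% of the 14516 genes tested fell (edgeR, adjusted p under 0.05). In none of the 9 did the ranges of the 5 injured and 5 uninjured libraries overlap. Here and below, overlap of ranges is given without its share over all genes. The transporter Slc2a5 and the receptors Gpr34 and Siglech kept 20.9%, 23.4% and 27.2% of their uninjured level in the fit, whereas Tmem119 kept 56.7% and Cx3cr1 63.8%. The median log2 fold change of the 9 was −1.18, against 0.01 over all genes tested. In bulk RNA, fewer cells that express a gene and less RNA per cell cannot be told apart.

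Slc2a5, the fructose transporter, stood at 1067, 876, 1101, 1006 and 914 CPM in the uninjured libraries of day 1 and at 173, 211, 146, 269 and 258 CPM after injury. The highest injured library was far below the lowest uninjured one. The gene fell by 2.26 on the log2 scale (SE 0.29, adjusted p = 2.46e-06 by edgeR), the deepest loss of the 9. Gpr34, the lysophosphatidylserine receptor, stood at 1562, 1344, 1482, 1523 and 2013 CPM without injury and at 412, 417, 301, 413 and 345 CPM with it. It fell by 2.09 on the log2 scale (SE 0.26, adjusted p = 1.63e-06). Siglech, the Siglec-family receptor, read 1731, 1497, 1728, 1667 and 1788 CPM in uninjured and 540.5, 491, 399, 428 and 469 CPM in injured libraries. Here too the groups were wide apart, and the log2 fold change was −1.88 (SE 0.19, adjusted p = 1.71e-07).

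A middle tier held both secreted genes, the selectin ligand and the scavenger receptor. Sparc, the matricellular protein, went from 5923, 5086, 6314, 4870 and 4947 CPM to 2445, 2196, 2116, 2080 and 2317 CPM, a fall by 1.31 on the log2 scale (SE 0.14). All 5 injured libraries lay below every uninjured one. Olfml3, the secreted olfactomedin-like protein, lay between 1912 and 2540 CPM without injury and between 817 and 1318 CPM with it, and fell by 1.18 (SE 0.28, adjusted p = 0.00224). Selplg fell by 1.13 (SE 0.13), from 6114 ± 830 to 2846 ± 215 CPM (n = 5 and 5). Fcrls fell by 1.01 (SE 0.21), from 3352 ± 254 to 1694 ± 297 CPM.

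The 2 shallowest losses were those of Tmem119 and Cx3cr1, both common markers of microglia. Tmem119 read 6170, 5113, 6295, 5338 and 4909 CPM without injury and 2978, 3336, 3020, 3613 and 3121 CPM with it, a fall by 0.82 on the log2 scale (SE 0.15, adjusted p = 0.000195). The fractalkine receptor Cx3cr1 read 3232, 3414, 4340, 5095 and 4175 CPM without injury and 3019, 2433, 2555, 2826 and 2315 CPM with it. Its groups were the closest of the 9, separated only by the gap from 3019 to 3232 CPM, and it fell by 0.65 (SE 0.14, adjusted p = 0.00113).

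**Figure D1:**
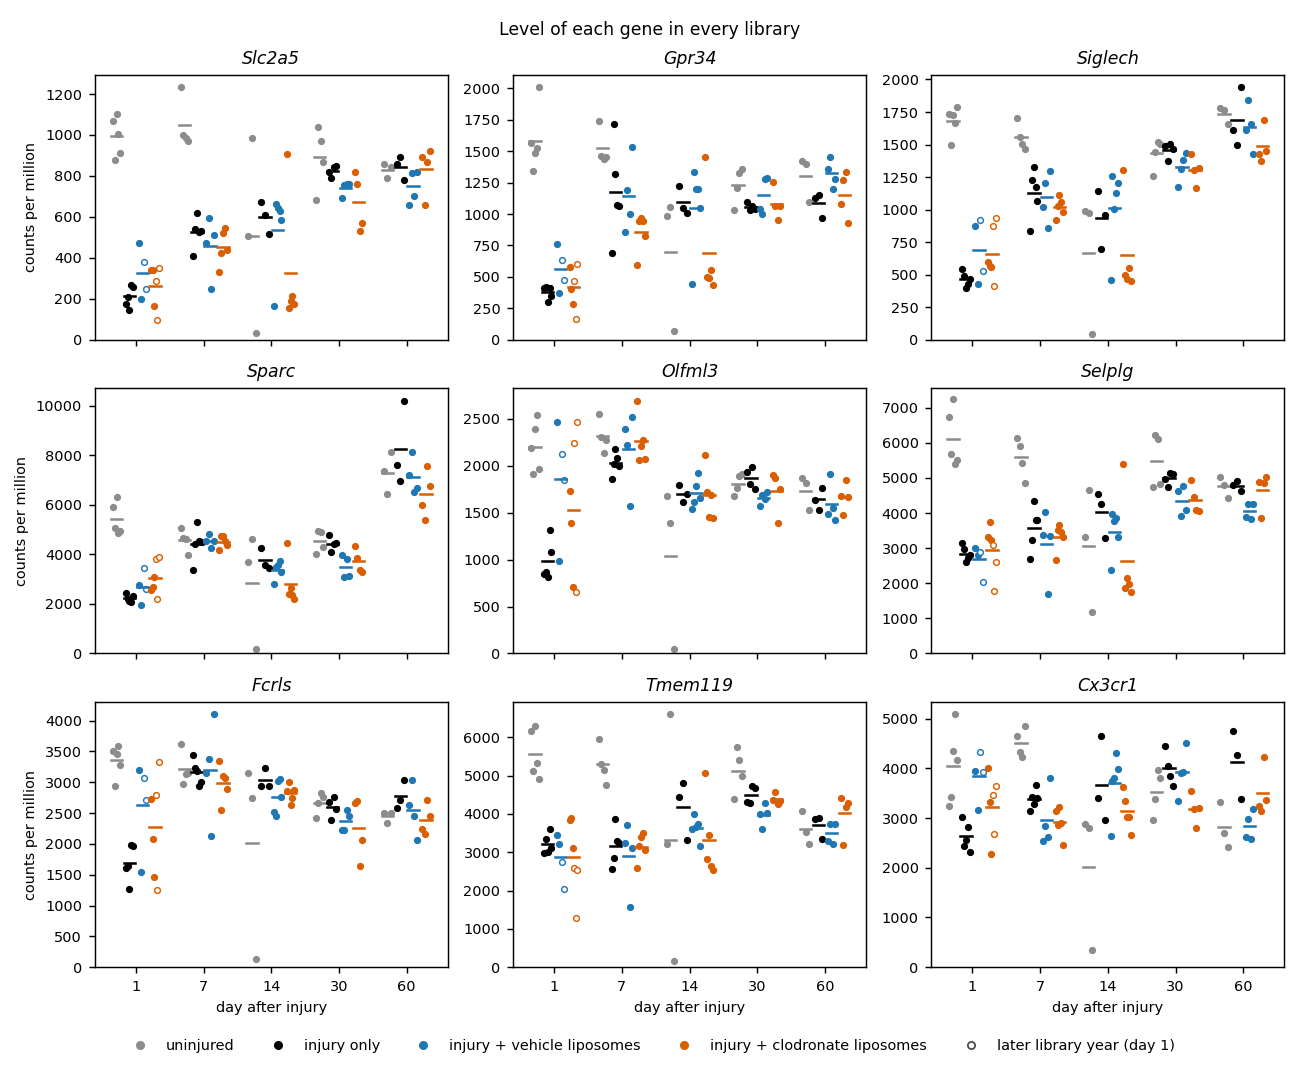
Each panel shows 1 gene, with the day after injury on the x axis and CPM on the y axis, which starts at 0; a point is 1 library, a short line the mean of the treatment, and open points are the later libraries of day 1. At day 1 all injured points lie below the uninjured ones for Slc2a5, Gpr34, Siglech, Sparc, Selplg and Tmem119, and at day 14 the lowest uninjured point of each panel, such as 31.4 CPM for Slc2a5, is uninjured library 3.

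Other signals differed between the same libraries of day 1. The 10 monocyte genes summed to 23.7 to 69.2 CPM after injury, with 7 of the 9 tested higher, yet the monocyte chemokine receptor Ccr2 had a log2 fold change of 0.15 (SE 0.28, adjusted p = 0.727). Neutrophil genes summed to 3.65 to 13.4 CPM after injury. All 4 of the 10 neutrophil genes that could be tested were higher, with a median log2 fold change of 6.57. Without injury 7 of the 10 were at 0 in all 5 libraries, so this median rests on values near 0. Ly6g, Mpo and Camp of that list were at 0 in all 5 injured libraries as well. Genes that respond to tissue handling, such as Fos and Dnajb1, summed to 69034 to 80603 CPM without injury and 34584 to 46177 CPM with it, and 10 of 12 fell. The 6 microglial genes summed to 19828 to 21320 CPM after injury, and 4 of the 6 fell. Beside Siglech, which plasmacytoid dendritic cells share, 10 dendritic genes summed to 11.7 to 21.6 CPM without injury and 12.4 to 15.4 CPM with it. The part of these signals in the fall of the 9 genes was not tested.

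The differences in depth were measured within libraries as ratios of gene pairs, an analysis chosen after the levels had been seen. Pairs of other genes were not measured at either day, so the counts of pairs describe these genes alone. Among the 36 pairs, the log2 ratio of injured and uninjured libraries did not overlap for 21 pairs at day 1, which is where the exact 2-sided permutation test reaches its smallest p for 5 against 5 libraries, 0.00794. The ratio of Slc2a5 to Cx3cr1 and that of Slc2a5 to Tmem119 were both lower after injury, since the ratios written the other way rose by 1.65 and 1.48 on the log2 scale (exact permutation p = 0.00794 each, 0.0266 adjusted over the 72 ratios of both days). Siglech fell further than Sparc by 0.58 and further than Selplg by 0.76 (exact permutation p = 0.00794 each, 0.0266 adjusted). The 3 deepest losses did not differ from each other beyond the spread: Gpr34 against Slc2a5 gave a difference of 0.20 (exact permutation p = 0.381, 0.429 adjusted) Siglech against Gpr34 one of 0.21 and Siglech against Slc2a5 one of 0.41 (exact permutation p = 0.0794 each, 0.104 adjusted). Nor did Tmem119 and Cx3cr1 (−0.18, exact permutation p = 0.349, 0.399 adjusted).

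At day 7 the 9 genes had split. Slc2a5, Tmem119, Selplg, Siglech and Cx3cr1 were still lower than in uninjured libraries of that day, with no overlap of the 5 injured and 4 uninjured libraries, while Fcrls, Sparc, Olfml3 and Gpr34 did not pass the test and their ranges overlapped. Thus 5 of 9 fell, beside 1.54% of the 14278 genes tested. The order of day 7 was not that of day 1. Relative to uninjured in the fit, Sparc went from 40.3% at day 1 to 98.3% at day 7, Fcrls from 49.6% to 99.9%, Gpr34 from 23.4% to 78.2% and Siglech from 27.2% to 73.5%, but Tmem119 only from 56.7% to 60.7%.

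Slc2a5 remained the lowest relative to uninjured, at 409.6, 539.6, 619.5, 525 and 533 CPM in injured libraries against 1235, 998, 984.5 and 969.7 CPM in uninjured ones. Every injured library was below every uninjured one. It fell by 0.97 on the log2 scale (SE 0.18, adjusted p = 0.0024). Tmem119 read 2571, 2840, 3860, 3288 and 3252 CPM against 5959, 5308, 5145 and 4763 CPM, and fell by 0.72 (SE 0.17, adjusted p = 0.0134). Its loss was close in size to that of day 1, so that its rank among the 9 moved from next to smallest to next to largest. Selplg, its neighbour on chromosome 5, read 2696, 3242, 4351, 3801 and 3808 CPM against 6143, 5907, 5425 and 4862 CPM, and fell by 0.62 (SE 0.18, adjusted p = 0.0374).

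Siglech and Cx3cr1 were the weakest calls of day 7. Siglech stood at 1126 ± 189 CPM against 1556 ± 105 (n = 5 and 4), a fall by 0.44 on the log2 scale (SE 0.13, adjusted p = 0.0376). Cx3cr1 stood at 3380 ± 196 against 4510 ± 292 CPM, a fall by 0.39 (SE 0.12, adjusted p = 0.0484). These calls depend on single libraries: the count of 5 became 1 without uninjured library 1, 2 without uninjured library 2 or 3 or injury-only library 1, 4 or 5, and 3 without injury-only library 2, uninjured library 4, clodronate library 5 or vehicle library 3, with only Slc2a5 lower in all 18 of these fits. Without injury-only library 3 or clodronate library 1, 2, 3 or 4, Cx3cr1 alone lost its call. Across the 18 fits the call of Cx3cr1 was lost in 15, that of Siglech in 9, Selplg in 7 and Tmem119 in 1. The count became 2 when the filter on low counts was dropped. These changed counts have no share over all genes beside them. Handling genes again differed between these libraries, with sums of 34662 to 56324 CPM after injury and 64612 to 74887 CPM without, and 5 of 12 fell. Their part in the loss of day 7 was not tested.

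The ranges of the other 4 genes overlapped those of uninjured libraries at day 7. Sparc read 3364, 4410, 5322, 4530 and 4518 CPM after injury and 5060, 4675, 4613 and 3971 CPM without, with a log2 fold change of −0.03 (SE 0.12, 95% interval −0.26 to 0.21). Fcrls read 3443, 3227, 3189, 2938 and 3001 CPM after injury and 3623, 2968, 3133 and 3145 CPM without (95% interval −0.27 to 0.26). Olfml3 stood at 2027 ± 118 against 2320 ± 174 CPM (−0.17, SE 0.12, adjusted p = 0.45). Gpr34 was the most variable of the 9 in injured libraries, at 688, 1719, 1320, 1073 and 1064 CPM against 1742, 1461, 1442 and 1454 CPM, and its −0.35 (SE 0.21, adjusted p = 0.354) leaves a wide 95% interval, −0.76 to 0.05. Because endothelial cells also express Sparc, their markers are set beside it: 12 endothelial and mural genes summed to 455 to 569 CPM in injured and 175 to 254 CPM in uninjured libraries, with 10 of 12 higher. In the clodronate libraries of day 7 those markers summed to 1092 to 2063 CPM, and Sparc read 4197 to 4735 CPM. The part of such cells in the level of Sparc was not tested in any of these groups.

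Pair ratios were also measured at day 7, again without pairs of other genes beside them. They did not overlap between injured and uninjured libraries for 19 of 36 pairs, where the exact test reaches its smallest 2-sided p for 5 against 4 libraries, 0.0159. Tmem119 lost 0.73 on the log2 scale relative to Fcrls and 0.69 relative to Sparc (exact permutation p = 0.0159 each, 0.0266 adjusted over the 72 ratios). At day 1 the ratio of Tmem119 to Sparc had moved the other way, by 0.49 (exact permutation p = 0.00794, 0.0266 adjusted). Fcrls against Sparc differed by 0.03 at day 7 (exact permutation p = 0.937, 0.937 adjusted). The ratios did not follow the calls throughout. The ratios of Siglech and Cx3cr1, both called, to Gpr34, which was not, differed by −0.05 and 0.02 (exact permutation p = 0.889 and 0.921, 0.914 and 0.934 adjusted).

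**Figure D2:**
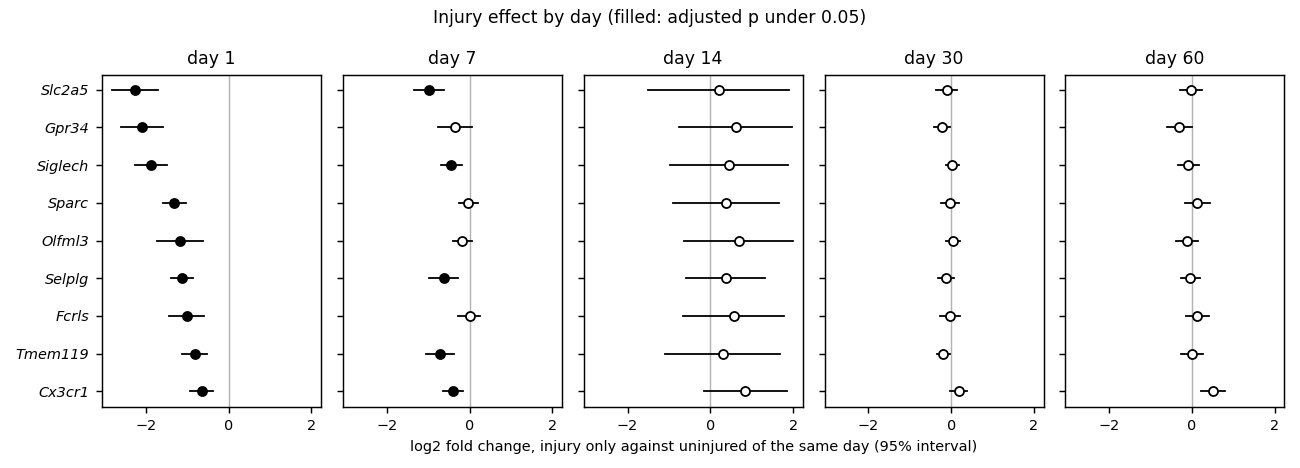
Log2 fold change of injury only against uninjured libraries of the same day (x axis) for each gene (y axis, ordered by the loss at day 1), 1 panel per day, with 95% intervals; filled points passed the test at an adjusted p under 0.05. All 9 points are filled at day 1 and 5 at day 7, and no point is filled later; the wide intervals at day 14 come with the 3 uninjured libraries that lay far apart.

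From day 14 on no difference between injury only and uninjured passed the test. At day 14, 0 of 9 genes fell and 0% of 14354 genes fell, with 1963 genes at an unadjusted p under 0.05. Slc2a5 read 507, 986 and 31.4 CPM in the uninjured libraries and 672, 610 and 519 CPM after injury, and Tmem119 3204, 6600 and 168 CPM against 4439, 4806 and 3327 CPM. Uninjured library 3, rich in monocyte and neutrophil transcripts, held the lowest value of both. All 9 log2 fold changes were positive, from 0.20 to 0.84, and the lowest adjusted p was 0.458. For Cx3cr1 the ranges did not overlap, at 2886, 2797 and 345 CPM without injury and 3407, 4650 and 2963 CPM with it. With 3 libraries in each group, ranges can separate by chance. Without library 3 alone, 0 of 9 and 0 of all 14921 genes passed. The log2 fold changes then ran from −0.33 (SE 0.69) for Slc2a5 and −0.24 (SE 0.32) for Tmem119 to 0.36 (SE 0.24) for Cx3cr1, so that the positive sign shared by the 9 rested on that library. Without uninjured libraries 1 and 3 a single uninjured library was left, taken to vary as the others do; 0 of 9 passed the test, and Tmem119, Slc2a5 and Selplg then stood at −0.64, −0.71 and −0.20.

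At day 30 levels of injured and uninjured microglia were close. None of the 9 genes fell, beside 0% of 14082 genes, 639 of which had an unadjusted p under 0.05, and the log2 fold changes ran from −0.22 for Gpr34 to 0.18 for Cx3cr1. Slc2a5, the gene of the deepest early loss, read 819, 790.4, 844.5 and 846 CPM after injury and 684, 1041, 969.9 and 868 CPM without, with a 95% interval of −0.36 to 0.15. Injured libraries were more alike than uninjured ones. Tmem119 read 4309, 4291, 4736 and 4668 CPM against 4388, 5737, 5408 and 4982 CPM (−0.19, SE 0.08, adjusted p = 1). The lower limit of its 95% interval, −0.34, lay above the values of days 1 and 7, −0.82 and −0.72.

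At day 60, 0 of 9 genes fell, beside 0% of 12033 genes, 418 of which had an unadjusted p under 0.05. DESeq2 and limma voom also called 0 of 9 in this direction at days 14, 30 and 60. Uninjured libraries of that day held 2930843 to 3739798 counts and injury-only libraries 8431455 to 12306417. Injured libraries averaged 844 ± 57.3 CPM of Slc2a5 and uninjured ones 830 ± 36.8 (SD, n = 3 each), with a 95% interval of −0.30 to 0.25. Cx3cr1 had the largest value of the 9 at this day: it read 4749, 4274 and 3382 CPM after injury and 3331, 2701 and 2420 CPM without (log2 fold change 0.50, SE 0.15, adjusted p = 1). The ranges did not overlap, which was also so for Fcrls at 2584, 2705 and 3031 against 2506, 2339 and 2496 CPM. Neither passed the test across all genes, and with 3 libraries in each group ranges can separate by chance. Sparc had its highest level of the study at this day, a mean of 8259 ± 1718 CPM in injured and 7306 ± 857 CPM in uninjured libraries (SD, n = 3 each), but all libraries of day 60 and no others carried the latest library year, so day and library year cannot be told apart.

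Whether the loss differed between days was tested in 1 fit of the injury-only and uninjured libraries of all days, each day with its own controls. The injury effect of Siglech, Gpr34, Slc2a5 and Selplg differed among the 5 days (adjusted p = 0.012, 0.00315, 0.00581 and 0.00538 by edgeR), thus 4 of 9 genes beside 12.2% of the 15555 genes tested. The effect at day 30 was less negative than at day 1 for the same 4 genes, by 1.89, 1.86, 2.13 and 0.98 on the log2 scale, beside 5.31% of genes called in either direction. At day 60 these 4 were again called, by 1.80, 1.79, 2.25 and 1.10, beside 6.31%. At day 7 only Gpr34 was called, with an effect 1.73 less negative than at day 1 (SE 0.47, adjusted p = 0.0203), beside 5.7% of genes. At day 14, 8 of 9 were called, all but Tmem119, beside 15.5%. Leaving out uninjured library 3 of that day alone changed no call of the 9 in this comparison. With each library left out in turn, the count ran from 6 to 9, without shares over all genes beside it. Without uninjured libraries 1 and 3 a single uninjured library of that day was left. Among the 8 genes other than Tmem119, gains then ran from 0.92 for Selplg to 2.14 for Gpr34.

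More genes passed without the day 14 libraries. With that day left out, the effect differed among days for 9 of 9 genes, beside 18.3% of genes. The effect was then less negative than at day 1 for 7 of 9 genes at day 7 (12.7% of genes), for 9 of 9 at day 30 (12.9%) and for 9 of 9 at day 60 (15.6%). The fold changes hardly moved: Slc2a5 gained 1.29 (SE 0.19) by day 7 and 2.15 (SE 0.19) by day 30. Sparc gained 1.29 (SE 0.16) and Fcrls 1.01 (SE 0.13) by day 7. The 2 genes with no change called between days 1 and 7 were Tmem119, with 0.10 (SE 0.14, adjusted p = 0.743), and Cx3cr1, with 0.26 (SE 0.16, adjusted p = 0.354). By day 30 they had gained 0.63 (SE 0.15, adjusted p = 0.00269) and 0.83 (SE 0.17, adjusted p = 0.000612). Counts without uninjured libraries 1 and 3 of day 14, chosen after seeing the data, were also 7, 9 and 9, and 9 among days. Without library 3 alone, they were 7, 9, 9 and 9, and without library 1 or 2 of that group 8 and 7 differed among days. No share over all genes is given for the counts of these reduced fits. The 1 call of day 7 was lost without injury-only library 2 of day 7. With 1 library left out in turn, the day 30 call of Selplg was lost in 11 of 39 fits. At day 60 the call of Siglech was lost in 12 of these fits, that of Gpr34 in 7 and that of Selplg in 3. The 4 calls of day 60 became 2 without uninjured library 5 or injury-only library 3 or 5 of day 1 or uninjured library 3 of day 60, and 1 without uninjured library 4 or 5 or injury-only library 3 of day 60.

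The 3 injured groups were each compared with the same uninjured libraries, so their values are set side by side and share controls. At day 1, 6 of 9 genes fell in vehicle-treated microglia, beside 10.9% of genes, and 7 of 9 in clodronate-treated microglia, beside 15.2%. Slc2a5, Gpr34, Siglech, Sparc, Selplg and Tmem119 fell in both groups. Slc2a5 fell by 1.51 (SE 0.34) with vehicle and 1.84 (SE 0.31) with clodronate, and Siglech by 1.42 (SE 0.23) and 1.51 (SE 0.21). Cx3cr1 and Olfml3 passed the test in neither liposome group, Cx3cr1 with −0.12 (SE 0.17, adjusted p = 0.66) for vehicle and −0.38 (SE 0.15, adjusted p = 0.0597) for clodronate. Olfml3 spread widely in both: vehicle libraries read 2461 and 990.4 CPM in the earlier year and 2126 and 1853 CPM in the later one. Clodronate libraries read 1732, 1386 and 711.5 CPM in the earlier and 2237, 654 and 2470 CPM in the later year. The uninjured range was 1912 to 2540 CPM.

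**Figure D3:**
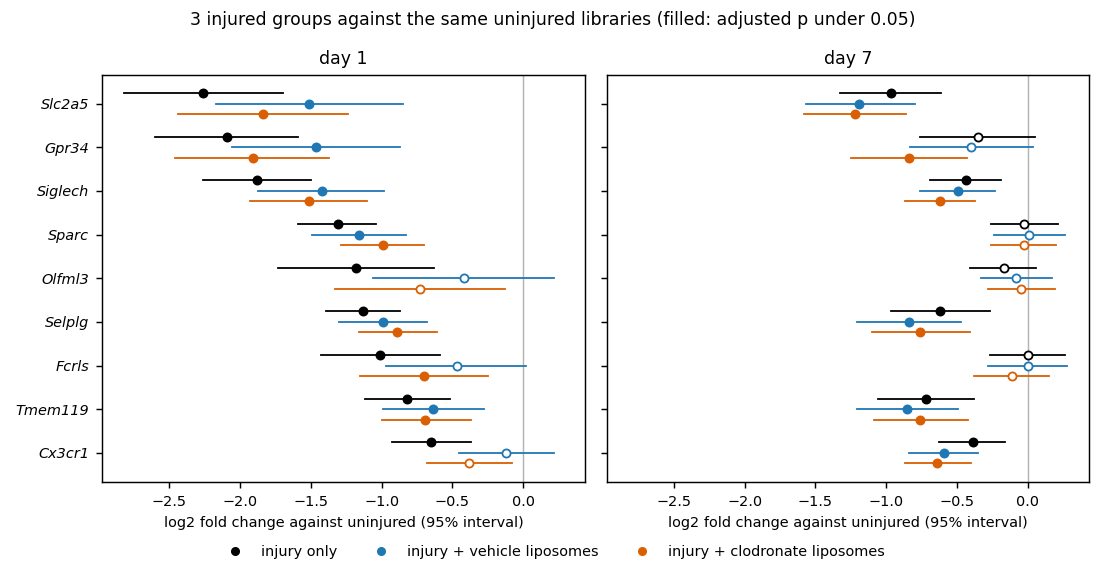
Log2 fold change against the uninjured libraries of the same day (x axis, 95% intervals) for each gene (y axis) in the 3 injured groups at days 1 and 7; filled points passed the test, and the 3 groups of a panel share their controls. At day 7 Sparc, Fcrls and Olfml3 lie between −0.17 and 0.01 in all 3 groups, while Slc2a5 lies between −0.97 and −1.22.

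Library year was a covariate of the day 1 fit, and the uninjured and injury-only libraries of that day were all of the earlier year. Tmem119 was lower in the later libraries, at 2753 and 2044 CPM with vehicle against 3461 and 3227 CPM in the earlier ones, and at 2594, 1273 and 2549 CPM with clodronate against 3831, 3884 and 3106 CPM. With the earlier libraries alone, 6 of 9 genes fell with vehicle and 8 of 9 with clodronate. Olfml3 was the gene gained with clodronate (−0.79, SE 0.27, adjusted p = 0.0281 by edgeR). Shares over all genes are not given for this smaller fit, so these counts have no background beside them. Handling genes summed to 15565 to 23712 CPM in the later libraries and to 37149 to 42331 CPM in the earlier liposome libraries, and their part in these levels was not tested.

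At day 7, with vehicle, 5 of 9 fell, beside 4.95% of genes, and with clodronate 6 of 9, beside 8.21%. Slc2a5 fell by 1.19 (SE 0.20) with vehicle and 1.22 (SE 0.18) with clodronate, Tmem119 by 0.85 (SE 0.18) and 0.76 (SE 0.17), Selplg by 0.84 (SE 0.19) and 0.76 (SE 0.18), Cx3cr1 by 0.59 (SE 0.13) and 0.64 (SE 0.12), and Siglech by 0.49 (SE 0.14) and 0.62 (SE 0.13). Gpr34 was called with clodronate alone, at 592, 945, 967, 947 and 827 CPM against 1742, 1461, 1442 and 1454 CPM without injury. All 5 clodronate libraries were below all uninjured ones (fall by 0.84, SE 0.21, adjusted p = 0.00641), but the difference of clodronate and vehicle itself, −0.45 (SE 0.21, adjusted p = 0.366), did not pass. Vehicle library 4, the shallow one, held the lowest value of its group for Slc2a5, Tmem119 and Selplg, at 246.5, 1577 and 1692 CPM. Without it 5 of 9 still fell with vehicle and 6 of 9 with clodronate.

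At day 30, 0 of 9 genes fell with vehicle, beside 0% of genes, and 0 of 9 with clodronate, beside 0.0071%; 1634 and 1792 genes had an unadjusted p under 0.05. With vehicle, DESeq2 called 1 and limma voom 3 of the 9, and with clodronate both called 0. The shares above are those of edgeR, so these counts have no share over all genes beside them. Single values below 0 nevertheless occurred without overlap: Tmem119 read 3992, 3597, 4297 and 4019 CPM with vehicle, and 4388 to 5737 CPM without injury (−0.36, SE 0.08, adjusted p = 0.154). Sparc gave −0.37 (SE 0.11, adjusted p = 0.189 by edgeR) with vehicle in the same way. Neither gene passed the test, and groups of this size can separate by chance. Without uninjured library 1 of day 30, Tmem119 passed with vehicle and Slc2a5 with clodronate, so the counts became 1 and 1, again without a share over all genes. At day 60, 0 of 9 fell with vehicle, beside 0.0831% of genes, and 0 of 9 with clodronate, beside 0.0166%, with 596 and 557 genes at an unadjusted p under 0.05. DESeq2 and limma voom called 0 there as well.

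Clodronate and vehicle liposomes were compared to ask whether depletion of monocytes changed the loss. No gene of the 9 was called at day 1 (0.186% of genes in either direction), at day 7 (0.574%), at day 14 (0%), at day 30 (0%) or at day 60 (0%), where 1212, 1877, 785, 1199 and 789 genes had an unadjusted p under 0.05. DESeq2 called 0 at every day, and limma voom 0 at every day but day 14. At day 7 the fold changes lay between −0.13 and 0.10 for all genes other than Gpr34. The 95% intervals, which are approximate, were −0.24 to 0.44 for Tmem119, −0.39 to 0.33 for Slc2a5 and −0.28 to 0.19 for Cx3cr1. At day 1 the intervals were wider, such as −0.88 to 0.21 for Slc2a5 and −0.94 to 0.04 for Gpr34. Cx3cr1 was −0.29 (SE 0.10, adjusted p = 0.463) at day 30, with 3546, 3189, 2791 and 3208 CPM against 3338, 3900, 3931 and 4517 CPM, and 0.26 (SE 0.13, adjusted p = 0.809) at day 60. A p above the threshold does not show that the liposomes acted alike.

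Day 14 differed from the other days in how its liposome libraries were arranged. Slc2a5 read 909, 153, 191, 216 and 172 CPM in the libraries labelled clodronate 1 to 5, and 166, 663, 644, 629 and 584 CPM in those labelled vehicle 1 to 5. Siglech read 1306, 494, 470.1, 549 and 452 CPM against 456, 1260, 1008, 1131 and 1201 CPM. In both genes the 4 other clodronate libraries were below the 4 other vehicle libraries, and library 1 of each label lay on the far side. P2ry12 was arranged in the same way. The labels were kept as given, and whether they are right for these libraries was not tested.

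With all libraries the log2 fold change of clodronate against vehicle at day 14 was −0.72 (SE 0.68) for Slc2a5, −0.64 (SE 0.57) for Siglech and −0.62 (SE 0.54) for Gpr34, each with an adjusted p of 1. Without both libraries numbered 1, a choice made after their values were seen and therefore given as a description, the values were −1.80 (SE 0.61), −1.25 (SE 0.59) and −1.30 (SE 0.53), and 0 of 9 passed in the fit with all treatments of the day, beside 2.16% of genes. In a fit of the remaining 4 clodronate and 4 vehicle libraries alone, 7 of 9 passed, all lower with clodronate, beside 24.7% of genes. These were Slc2a5 (−1.82, SE 0.12), Gpr34 (−1.31, SE 0.11), Siglech (−1.27, SE 0.11), Selplg (−0.98, SE 0.10), Sparc (−0.59, SE 0.09), Cx3cr1 (−0.44, SE 0.10) and Tmem119 (−0.38, SE 0.11). Fcrls and Olfml3, at −0.04 (SE 0.10) and −0.19 (SE 0.10), did not pass. With all 10 libraries and limma voom, which gives libraries that stand apart less weight, 5 of 9 passed, beside 20.6% of genes. Border macrophage markers were higher in the libraries where Slc2a5 and Siglech were lower. The 10 genes of that list summed to 514.5 to 673 CPM in clodronate libraries 2 to 5 and 614 CPM in vehicle library 1. They summed to 204 to 330 CPM in vehicle libraries 2 to 5 and 107 CPM in clodronate library 1. Monocyte genes summed to 70.5 to 108 CPM in the former 5 libraries and to 18.8 to 39.3 CPM in the latter 5. Handling genes summed to 31569 to 40945 CPM in the former and to 54918 to 71601 CPM in the latter. The part of such cells and of handling in the difference was not tested.

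**Figure D4:**
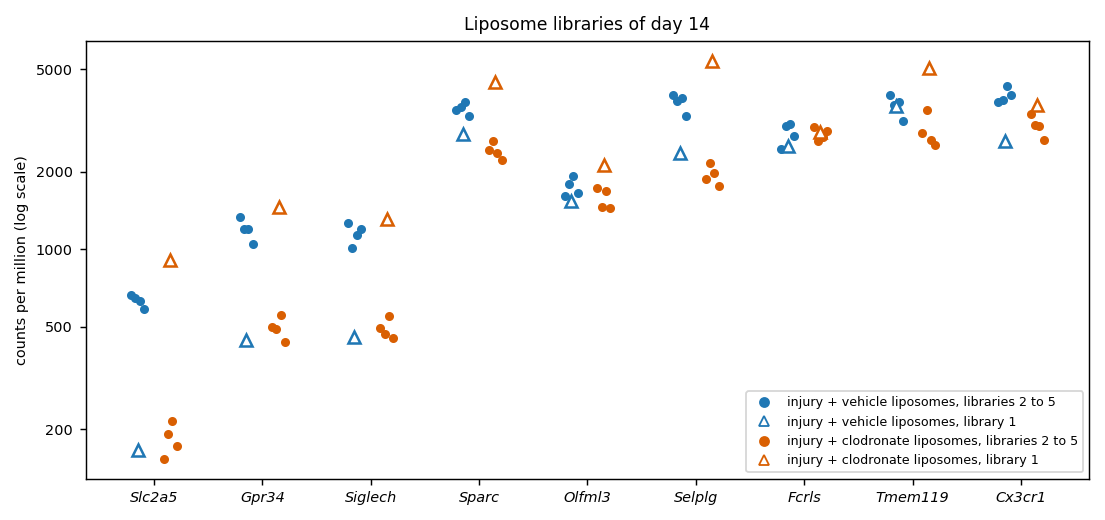
Level of each gene in the 10 liposome libraries of day 14, in CPM on a log axis, with the 2 libraries numbered 1 as open triangles and the 8 others as filled points. For Slc2a5 the open clodronate triangle lies at 909 CPM, above the vehicle libraries 2 to 5 at 584 to 663 CPM, and the open vehicle triangle at 166 CPM, among the clodronate libraries 2 to 5 at 153 to 216 CPM.

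Over all days the clodronate effect differed among days for 0 of 9 genes, beside 0.131% of the 16773 genes tested by edgeR. DESeq2 called 0 and limma voom 4 of the 9, and that share does not apply to these methods. Without the 2 day 14 libraries numbered 1, the clodronate effect differed for 3 of 9, Siglech, Slc2a5 and Selplg, beside 6.18% of 16741 genes. These libraries were left out after their values for the same genes had been seen. The count is therefore a description, and its p-values are not given. The clodronate effect differed for Selplg alone without the library labelled clodronate 1.

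Vehicle liposomes with injury were compared with injury only to measure what the liposomes themselves add. No gene of the 9 was called at day 1 (0.875% of genes), day 7 (0.336%), day 30 (0%) or day 60 (0.00831%), with 2057, 1730, 1212 and 695 genes at an unadjusted p under 0.05. DESeq2 and limma voom called 0 at each of these days. Without the filter on low counts, edgeR called 6 at day 1 and 1 at day 60. The shares above are those of the filtered fit, so these 6 and 1 have no share over all genes beside them. At day 1 all 9 log2 fold changes were positive, with a median of 0.53, and 6 genes had an unadjusted p under 0.05. Cx3cr1 read 3954 and 3152 CPM in the earlier and 4324 and 3924 CPM in the later vehicle libraries, and 2315 to 3019 CPM with injury only. Its ranges did not overlap (0.53, SE 0.17, adjusted p = 0.134). The largest differences were 0.76 (SE 0.32, adjusted p = 0.285) for Olfml3 and 0.75 (SE 0.32, adjusted p = 0.294) for Slc2a5. At day 60 Cx3cr1 was −0.49 (SE 0.14, adjusted p = 0.559), with 2579 to 3188 CPM in 4 vehicle libraries below 3382 to 4749 CPM in 3 injury-only ones. Vehicle and injury-only libraries of day 14 were of different years and were not compared.

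Across the 22 groups of treatment, day and library year, the mean level varied most for Slc2a5, and which gene varied least depended on 1 library. Slc2a5 ran from 211 CPM in injury-only libraries of day 1 to 1047 CPM in uninjured libraries of day 7, a ratio of 4.96, Gpr34 from 378 to 1585 CPM (4.20), Siglech from 465 to 1735 CPM (3.73) and Sparc from 2231 to 8259 CPM (3.70). The ratio was 2.60 for Tmem119, 2.48 for Selplg, 2.35 for Olfml3, 2.25 for Cx3cr1 and 1.98 for Fcrls. Injury only at day 1 was the lowest group for Siglech, Fcrls, Gpr34, Olfml3, Sparc and Slc2a5. Tmem119 and Selplg were lowest in the later liposome libraries of day 1, and Cx3cr1 in uninjured libraries of day 14, where library 3 held 345 CPM. Without the 3 libraries of day 14 that stood apart, a choice made after seeing the data, the ratio was smallest for Cx3cr1, at 1.72 (1.98 for Fcrls). Clodronate libraries of day 14 then became the lowest group of Slc2a5, at 183 CPM with a ratio of 5.72, and of Selplg, at 1941 CPM with a ratio of 3.15. When the groups were ordered by their mean, the libraries of neighbouring groups overlapped for all 21 adjacent pairs in 8 genes and for 20 of 21 in Siglech.

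The 9 genes formed no single profile over these 22 group means, which share controls, library years and scaling, so that correlations are given as a description. Fcrls and Olfml3 were the most alike (Pearson r = 0.955 on log2 CPM), and each was the other's closest of 8346 genes with a mean of at least 3 log2 CPM. Slc2a5 correlated at 0.941 with Gpr34, 0.937 with Selplg and 0.935 with Siglech, but at 0.506 with Fcrls and 0.490 with Cx3cr1. The neighbours Tmem119 and Selplg had an r of 0.838. Without the 3 libraries of day 14 that stood apart, the r of Slc2a5 was 0.938 with Gpr34, 0.932 with Selplg and 0.946 with Siglech, and that of Tmem119 and Selplg was 0.868. Fcrls and Olfml3 then gave 0.848 and were still each other's closest gene. Pairs with Cx3cr1 or Tmem119 moved further, from 0.587 to 0.190 for Tmem119 with Olfml3, and for Cx3cr1 from 0.782 to 0.403 with Fcrls and from 0.674 to 0.332 with Tmem119. Outside the 9, P2ry12 was the closest to Slc2a5 (0.980) and Gpr34 (0.977), F11r to Tmem119 (0.956), Ldhb to Sparc (0.956), Tmem64 to Siglech (0.951) and St6galnac4 to Cx3cr1 (0.885). The genes nearest the mean profile of the 9 were the adhesion receptor Adgrg1 (0.966), Gpr155 (0.962), Sgce and Plxdc2 (0.951 each) and Golm1 (0.949). These ranks were sensitive to the same 3 libraries: without them P2ry12 came first for the mean profile (0.956), for Siglech (0.962), Slc2a5 (0.974) and Gpr34 (0.973), Ldhb stayed first for Sparc (0.947), and Vsir took the first place for Tmem119 (0.952) and Ss18 that for Cx3cr1 (0.715).

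A further 18 genes of the resting microglial programme, receptors, enzymes and transcription factors, were measured in the same fits. At day 1 after injury 17 of 18 fell, with a median log2 fold change of −0.67, beside 15.3% of genes. P2ry12 fell by 2.26 (SE 0.24) and P2ry13, another purinergic receptor, by 1.09 (SE 0.11). The protease inhibitor gene Cst3 fell by 0.89 (SE 0.12), the transcription factor gene Sall1 by 0.77 (SE 0.20), the growth factor receptor gene Csf1r by 0.65 (SE 0.10) and the phagocytic receptor gene Mertk by 0.31 (SE 0.12). The complement gene C1qa did not pass (0.06, SE 0.10). At day 7, 4 of 18 fell (P2ry12, P2ry13, the crystallin gene Crybb1 and the ectonucleotidase gene Entpd1, by 0.69, 0.67, 0.70 and 0.57), with a median of −0.34, beside 1.54% of genes, and none fell at day 14, 30 or 60, where 0% of all genes did. In liposome-treated microglia, 10 of 18 fell with vehicle and 14 of 18 with clodronate at day 1, beside 10.9% and 15.2% of genes, and 5 and 7 of 18 at day 7, beside 4.95% and 8.21%. With all libraries, clodronate against vehicle called none of the 18 at any of the 5 days. At day 14 without both libraries numbered 1, it called none in the fit of all treatments of the day, beside 2.16% of genes. In the fit of the remaining 4 clodronate and 4 vehicle libraries alone, 11 of 18 were lower with clodronate and 1, C1qa, higher (0.64, SE 0.11), beside 24.7% of genes. P2ry12 then stood at −1.59 (SE 0.11) and Cst3 at −1.31 (SE 0.12).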

How the data were processed

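Bulk RNA of sorted mouse microglia was measured in 84 libraries. The deposited files hold raw read counts per Ensembl gene made by the authors. Per the submitters' processing notes, STAR and builds mm10 and GRCm38 were used, and the summary lines of the files are those of HTSeq. Per the labels' protocols, RNA was extracted with PicoPure and libraries were made with Nextera XT and 11 PCR cycles. The sources used here give neither tool versions nor strand settings. Summary lines were left out of library totals, and duplicated molecules cannot be told apart. No 2 libraries of a group agreed within sampling noise.

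Counts were fitted per day with edgeR 4.0.16 in R 4.3.3 (filterByExpr with a minimum count of 10 and a minimum total of 15, TMM, quasi-likelihood F test), with all treatments of a day in 1 fit and library year as a covariate at day 1. Differences between days were fitted over all days of the compared treatments. Genes were called at a Benjamini-Hochberg adjusted p under 0.05 over all genes tested. The 95% intervals are the log2 fold change ± 1.96 SE, with the SE derived from the F statistic of the same fits. They are approximate, and somewhat narrow for groups of this size. At day 14 the injury-only and uninjured libraries were of an earlier year than the liposome libraries, and these were not compared. For 2 uninjured libraries of day 30, title and library name gave different numbers, and the latter was taken. The method was tested on simulated data. Gene pair ratios used exact permutation tests.

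All 9 genes were named in every comparison. Genes most like them were the 5 with the highest correlation to their mean profile and the 2 highest for each gene, and other genes were named by smallest p or as fixed markers. The 9 genes and all lists were chosen with earlier results of these data known. Alternatives were DESeq2 1.42.0, limma 3.58.1 (voom with quality weights), DESeq2 size factors, no filter, a replicate block, the compared groups alone, single library years, thinned counts, and libraries or days left out. Replicate numbers paired the libraries in no comparison. Proteins and 3 promoters are not used here. A result that needs a withheld item is not reported here.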

Additional observations from a re-analysis of the deposited data

Results flagged for a closer look

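In groups of 4 or 5 libraries, 126 sets of 1 gene and 1 group were examined for a library far from the others, and 10 had one; chance flags about 1 in 20 such sets. At day 14, 5 of them were values of the library labelled clodronate 1, which stood far above the other 4 clodronate libraries: Siglech at 1306 CPM, Gpr34 at 1455 CPM, Sparc at 4463 CPM, Slc2a5 at 909 CPM and Selplg at 5402 CPM. The library labelled vehicle 1 of that day stood far below the other vehicle libraries for Slc2a5, at 166 CPM. Uninjured library 1 of day 7 stood above the other 3 for Gpr34, at 1742 CPM, and for Slc2a5, at 1235 CPM. Vehicle library 1 of day 30 was low for Slc2a5, at 693 CPM, and clodronate library 2 of day 60 for Selplg, at 3857 CPM.

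The injury effect differed between days by a test of the difference itself for Siglech (adjusted p = 0.012 by edgeR), Gpr34 (0.00315), Slc2a5 (0.00581) and Selplg (0.00538).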

How the results depend on the processing

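Each count of the 9 genes was recomputed under every alternative that applied. The counts of this section stand without the share of all genes called under the same alternative. They show how far a count moved, and not whether the 9 genes stood out. Leaving out libraries 1 of both liposome groups at day 14, and uninjured libraries 1 and 3 of day 14 in the fits over all days, was chosen after seeing the data. No fold change of a called gene reversed. Without the filter on low counts, 2 genes were lower after injury only at day 7, 1 differed between clodronate and vehicle at day 1, and 6 and 1 differed between vehicle and injury only at days 1 and 60. For vehicle against uninjured at day 30, DESeq2 called 1 and limma voom 3. For clodronate against vehicle at day 14, limma voom called 5, and the compared groups alone without libraries 1 gave 7. The number of genes whose injury effect at day 7 differed from day 1 was 2 with DESeq2, 7 with limma voom, and 7 without day 14 or without uninjured libraries 1 and 3 of day 14. At days 30 and 60 limma voom and both omissions gave 9 each. The injury effect differed among days for 9 genes with limma voom, without day 14, and without those libraries, and the clodronate effect for 4 with limma voom and 3 without libraries 1 of day 14. With 1 library left out in turn, counts ran from 1 to 5 (injury only, day 7), 0 to 1 (vehicle and clodronate against uninjured, day 30), 0 to 7, 3 to 9 and 1 to 9 (days 7, 30 and 60 against day 1), 4 to 9 (injury effect among days) and 0 to 1 (clodronate effect among days). Why these settings moved the counts was not tested.

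The replicate block gave 4 genes lower after injury only at day 7, and 0 with another injury effect at day 7, 30 or 60 than at day 1; same-numbered libraries share only a number. Groups of 3 to 5 libraries and the wide spread of day 14 limit what could be detected, and at day 60 the uninjured libraries were shallow; thinned counts also gave 0.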
